A study of Arabidopsis thaliana with 6 samples.

Results

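Regions of the genome called as peaks after immunoprecipitation of the tagged transcription factor PIF1, and which lay inside the body of a gene, are described here. A called region is not by itself shown to be a binding site. Of 4845 regions found in at least 2 of 3 PIF1 peak lists, 1732 lay inside a protein-coding nuclear gene, or 35.7% (exact 95% interval 34.4 to 37.1). A region was made by merging peaks of different lists that overlapped by 1 bp or more, and it was placed at the mean of its summits, the points of highest signal of its peaks. Members were thus chosen by the measured position of the summits and the number of supporting lists, so their number is a description. Of the 1732 members, 402 had peaks of all 3 lists and 1330 had peaks of 2. Merged regions inside genes numbered 8853 in all, of which 19.6% were supported by 2 or 3 lists, and 26.4% of all 18378 merged regions were.

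The samples were whole Arabidopsis thaliana seedlings, 3 days old, given white light for 3 h to start germination and then kept for 3 days in darkness at 21 °C. One group overexpressed PIF1 carrying a Myc tag (labelled P1M) and the other was wild type without a tag, and both went through immunoprecipitation with the same anti-Myc antibody. Each group had 3 libraries, and each library pooled 4 immunoprecipitations from 2 biological replicates. The promoter that drives the tagged protein and the number of transgenic lines are not given in the sources used here. The material is an overexpressor, so its amount of PIF1 is not that of wild type, and signal from different tissues of the seedling cannot be told apart. Each peak list set 1 PIF1 library against the wild-type library of its number, at a p cutoff of 1e-05. After removal of excess duplicates, PIF1 libraries 1, 2 and 3 held 14209334, 5825479 and 5721184 tags, and the lists held 4578, 12776 and 7678 peaks. The lists differ in quality as the peak caller saw it: its false discovery rate was 100% at every list 1 peak and at 82.5% of list 3 peaks, and below 100% throughout list 2.

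PIF1 is a basic helix-loop-helix protein that accumulates in darkness, is removed after light activates phytochrome, and holds back germination and greening. Proteins of this class contact short DNA elements such as the G-box, and their known sites in plants often lie in promoters, upstream of the transcribed part. A site inside a gene body may lie in an exon, an intron or an untranslated end. The gene table used here (assembly TAIR10.1, applied to peaks on TAIR10) holds gene ends without strand, so the start and the end of a gene could not be told apart, nor exons from introns.

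Gene-body regions lay mostly close to a gene end. The median distance from a member to the nearer end of its gene was 238 bp, with quartiles at 92.9 and 622 bp and a highest value of 7548 bp. Of the 1732 members, 461 (26.6%, exact 95% interval 24.5 to 28.8) lay up to 100 bp from an end and 888 (51.3%, 48.9 to 53.6) up to 250 bp. Of the base pairs of all protein-coding genes, 8.45% and 20.7% lie that close, and a position drawn evenly over the same host genes would do so with 10.2% and 23.6%. Measured as a share of gene length, 47.7% of members lay in the outermost 10% at either end, where an even spread puts 20%. At the other side of the scale, 233 members (13.5%) lay more than 1000 bp from both ends, against 31.4% of gene base pairs and 25.2% for even positions in the same hosts. These shares describe positions and were not tested, since the position is what chose the members.

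Single-list regions inside genes, 7121 in number, were spread more evenly, with 32.6% up to 250 bp from an end and 24.8% more than 1000 bp from both. For members of 2 lists the share up to 250 bp was 50.2%, and for members of all 3 lists it was 54.7%. Up to 100 bp from an end lay 15.3%, 24.8% and 32.6% of regions of 1, 2 and 3 lists. The share rose with the number of lists at both distances, but 2-list members differed by which lists held them: those of lists 2 and 3 had 60.7% up to 250 bp, above the members of 3 lists.

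**Figure D1:**
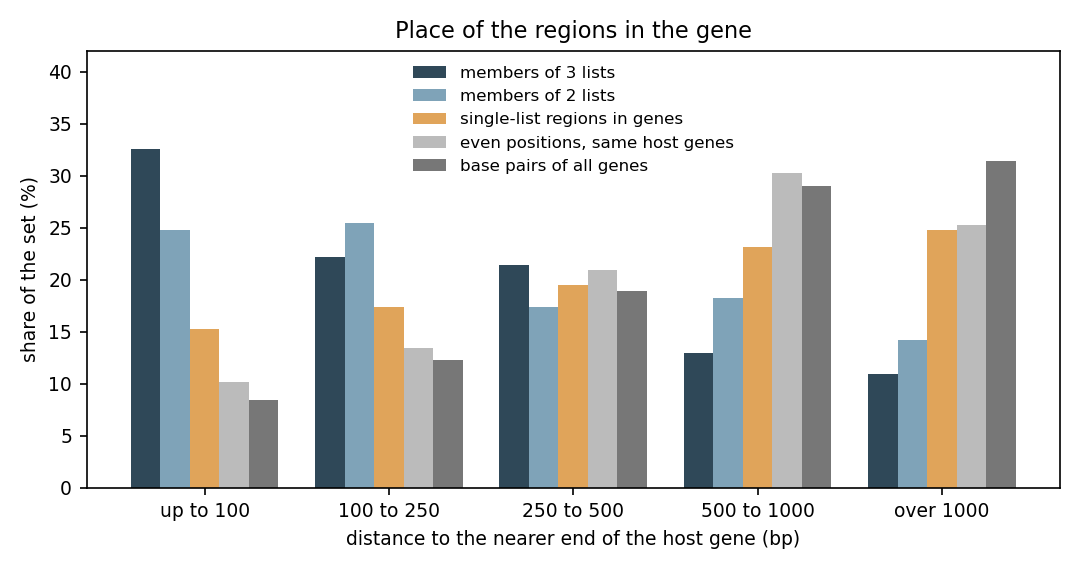
Share (%) of each set by distance to the nearer end of the host gene (bp), for members of 3 lists, members of 2 lists, single-list regions inside genes, even positions over the members' own host genes, and base pairs of all protein-coding genes. Members of 3 lists hold 32.6% in the outermost class and 10.9% beyond 1000 bp, against 8.45% and 31.4% of gene base pairs.

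Counts of regions were of like size on both sides of a gene end. In steps of 100 bp, 502 consensus regions lay in the first step outside a gene end and 458 in the first step inside, where a position at exactly 100 bp counts in the next step. Counts then fell on both sides, to 384 and 314 in the second step and 220 and 204 in the third. Farther out the sides parted: 900 to 1000 bp from an end there were 95 regions outside and 37 inside. Genes and the gaps between them have their own lengths, which also set how many base pairs each step holds.

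**Figure D2:**
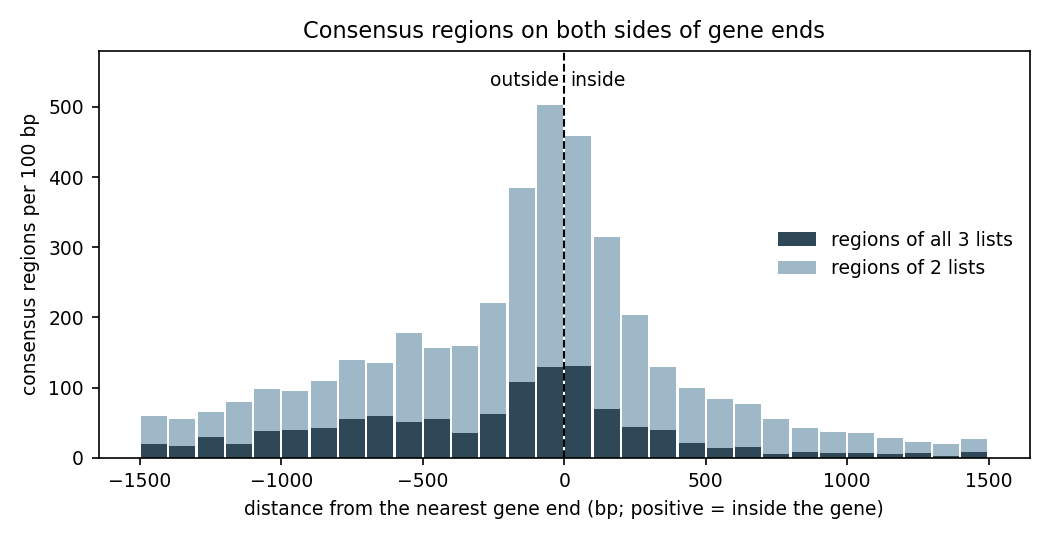
Number of consensus regions per 100 bp by distance (bp) from the nearest gene end, negative outside and positive inside the gene, with regions of all 3 lists in dark and regions of 2 lists stacked in light colour. The count is highest in the 2 steps that touch the gene end, with 502 regions outside and 458 inside.

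Most of these regions also reached past the gene in which they were placed. In 1139 members (65.8%, exact 95% interval 63.5 to 68.0) the merged region crossed 1 end of the host, in 85 (4.91%) it covered the whole host, and in 508 (29.3%, 27.2 to 31.5) it lay inside the host throughout. The region took up a median of 29.0% of its host, with quartiles at 18.2% and 49.8%. For 1443 members (83.3%, 81.5 to 85.0) the summits of every supporting list lay in the host, and for the rest at least 1 list placed its summit outside. Of the 233 members more than 1000 bp from both ends, 224 lay wholly inside the host, and 44 (18.9%, 14.1 to 24.5) were held by all 3 lists.

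List 1, the deepest library and the one with the lowest fold enrichments, carried gene-body regions in a different way from the other lists. Of 2-list members, 418 of 1330 (31.4%, exact 95% interval 28.9 to 34.0) rested on list 1 and 1 other list, against 301 of 2125 (14.2%, 12.7 to 15.7) of 2-list regions outside genes. Members of lists 2 and 3 without list 1 numbered 912, with a median distance of 181.5 bp from the nearer end and 60.7% up to 250 bp. The 309 members of lists 1 and 2 had a median of 467 bp and 30.4%, and the 109 of lists 1 and 3 had 542.5 bp and 18.3%. Taking each list's own summits in members, those of list 1 that fell in the host lay up to 250 bp from an end in 36.9% of cases, those of list 2 in 54.8% and those of list 3 in 52.5%, a mean of 48.1% ± 9.73 (SD, n = 3). The place in the gene thus depended on which lists supported a region, and the part of library 1's depth or background in this was not tested.

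Support by all 3 lists was given to 23.2% of members (exact 95% interval 21.2 to 25.3) and to 31.7% of the 3113 consensus regions outside genes (30.1 to 33.4). Within genes the share was 28.4% (24.3 to 32.8) up to 100 bp from an end, 20.8% from 100 to 250 bp, 27.1% from 250 to 500 bp, 17.7% from 500 to 1000 bp and 18.9% beyond. Outside, the share was 27.1% (24.4 to 29.9) up to 250 bp from a gene and 37.7% (33.9 to 41.5) at 500 to 1000 bp. Regions just inside and just outside a gene end therefore had shares whose intervals overlap.

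Fold enrichment over wild type, the authors' value for each peak, was lower in members than in consensus regions outside genes in each of the 3 lists. In list 1 the median was 2.86 in 820 members and 3.79 in 1289 outside regions. List 2 gave 6.32 (1623 members) and 7.66 (3055 regions), and list 3 gave 4.01 (1423) and 4.56 (2870). On the log2 scale the difference of medians, members minus outside regions, was -0.41, -0.28 and -0.19, a mean of -0.29 ± 0.11 (SD, n = 3). An exact sign-flip permutation test over the 3 lists, two-sided, gave p = 0.25, the smallest that 3 lists allow. After Benjamini-Hochberg adjustment over the 12 tests of fold enrichment, peak length and tags per peak, the adjusted p was 0.5.

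The difference had the same sign at equal support. Among regions of all 3 lists the medians were 3.48 and 4.18 in list 1, 9.43 and 12.2 in list 2, and 4.77 and 6.55 in list 3, members first, a mean log2 difference of -0.37 ± 0.10 (SD, n = 3, exact permutation p = 0.25). Among regions of 2 lists the mean log2 difference was -0.18 ± 0.05 (exact permutation p = 0.25), again lower in members in 3 of 3 lists. Inside genes, members more than 1000 bp from both ends had medians of 2.81, 6.08 and 3.87 in lists 1, 2 and 3, and members up to 250 bp from an end had 3.15, 6.64 and 4.11. That log2 difference was -0.13 ± 0.04 (SD, n = 3, exact permutation p = 0.25). In lists 2 and 3 the ranges between quartiles overlapped for all classes of place, inside and outside genes. In list 1 the range for members 500 to 1000 bp from an end (2.17 to 3.12) lay below those for regions 500 to 1000 bp outside (3.27 to 5.01) and 1000 to 2000 bp outside (3.25 to 5.38).

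**Figure D3:**
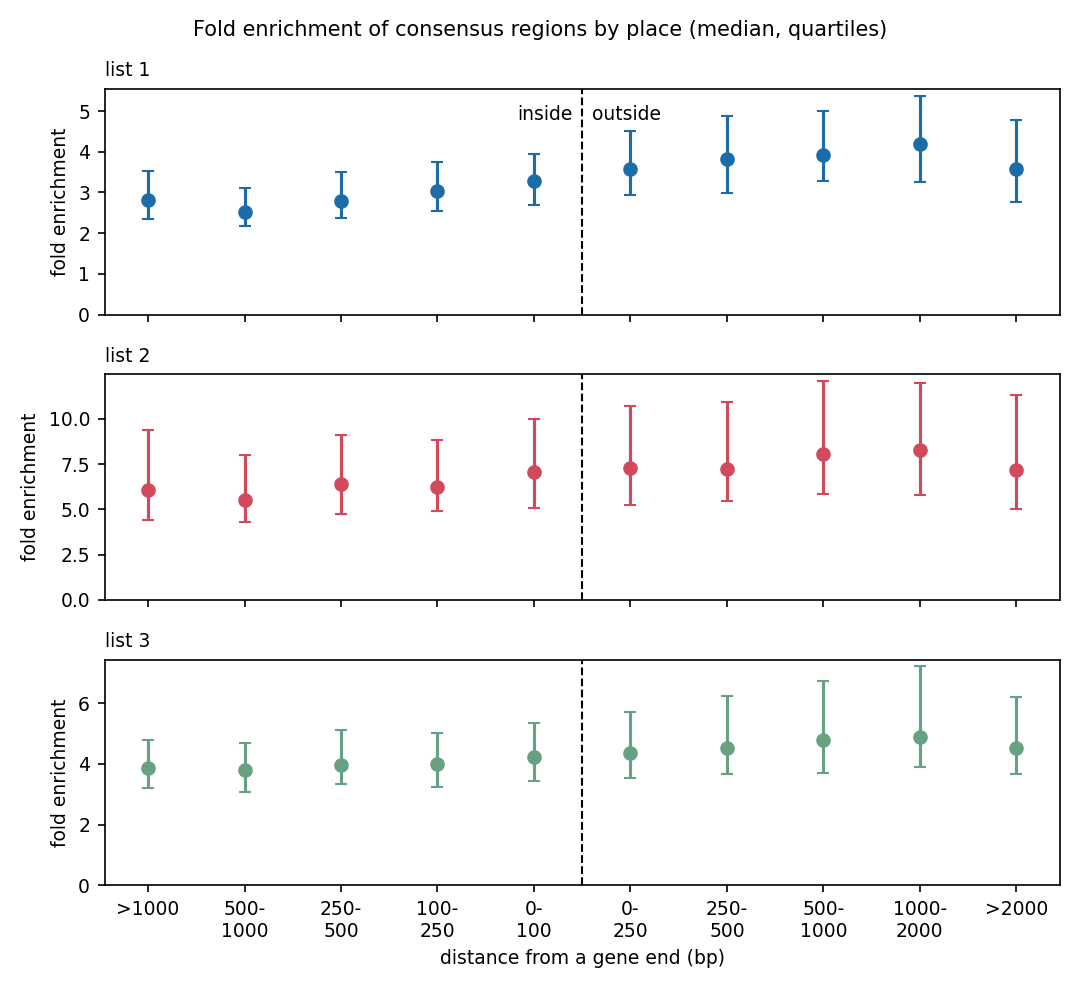
Fold enrichment over wild type (median as points, quartiles as bars) of consensus regions in lists 1, 2 and 3 by distance from a gene end (bp), inside genes left of the dashed line and outside to the right. Medians are lowest 500 to 1000 bp inside genes (2.51, 5.51 and 3.79) and highest 1000 to 2000 bp outside (4.18, 8.28 and 4.88).

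Ordered by strength, the share of regions inside a gene fell from the weakest 25% to the strongest 25% in each list. In list 1 it went from 65.9% (exact 95% interval 61.7 to 69.9) to 16.9% (13.8 to 20.4), in list 2 from 44.7% (41.8 to 47.6) to 24.4% (21.9 to 26.9), and in list 3 from 45.1% (42.1 to 48.1) to 21.5% (19.1 to 24.1). None of the 10 strongest regions of all 3 lists lay inside a gene (exact 95% interval 0% to 30.8%). Of the 100 strongest 14 did (7.87% to 22.4%). The share among all regions of all 3 lists was 28.9%, which the interval for the 10 strongest includes and that for the 100 strongest does not. In list 2, 18.5% of members (301 of 1623) and 30.9% of outside regions (944 of 3055) had a false discovery rate of 5% or less.

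**Figure D4:**
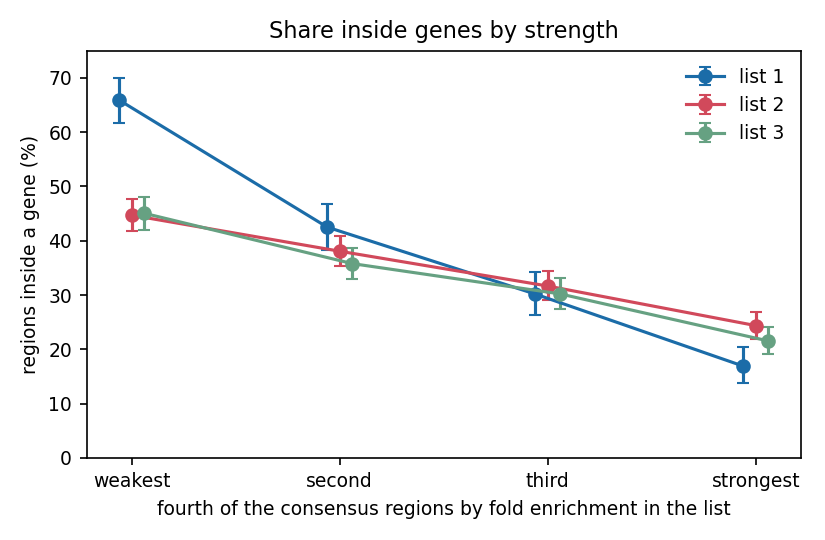
Share (%) of consensus regions that lie inside a protein-coding gene, in 4 equal classes of fold enrichment within lists 1, 2 and 3, with exact 95% intervals as bars. The share falls at each step in all 3 lists, from 65.9%, 44.7% and 45.1% in the weakest class to 16.9%, 24.4% and 21.5% in the strongest class.

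Over all members, peak length and tag number did not differ from outside regions in 1 direction in all 3 lists. Median peak lengths in lists 1, 2 and 3 were 903.5, 690 and 628 bp in members and 706, 704 and 584 bp outside genes, so members were longer in lists 1 and 3 and shorter in list 2 (mean log2 difference 0.14 ± 0.20, SD, n = 3, exact permutation p = 0.5). Tags per peak had medians of 196.5, 120 and 80 in members and 173, 143 and 77 outside (mean log2 difference -0.0047 ± 0.22, exact permutation p = 1). Among regions of 2 lists, members had longer peaks in 3 of 3 lists, with log2 differences of 0.46, 0.028 and 0.13 (mean 0.21 ± 0.23, exact permutation p = 0.25), and among regions of 3 lists in 2 of 3 (mean 0.093 ± 0.22, exact permutation p = 0.75). Members more than 1000 bp from both ends had fewer tags per peak than those up to 250 bp from an end in 3 of 3 lists (mean log2 difference -0.19 ± 0.095, exact permutation p = 0.25). Merged regions were 954 bp long in the median in members and 832 bp outside. Summits of the supporting lists lay 69 bp apart in members and 45 bp outside, both medians, and the members of lists 1 and 2 alone had summits 243 bp apart.

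Turning to single genes, the 10 strongest members held by all 3 lists, by mean percentile of fold enrichment within the lists, lay near a gene end in most cases. The strongest lay 26 bp inside AT4G30410, which the gene table also names IBL1 for its likeness to the helix-loop-helix gene IBH1. Its region at chromosome 4, 14871068 to 14872652 (TAIR10), had fold enrichments of 8.89, 28.48 and 23.54 and 531, 410 and 257 tags in lists 1, 2 and 3. The next lay 118 bp inside ALDH2C4, an aldehyde dehydrogenase gene of phenylpropanoid metabolism, at chromosome 3, 8922781 to 8923539, with 8.43, 30.59 and 22.38-fold enrichment and summits within 7 bp of each other. List 1 was lowest for both, as it was for all 10.

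The third of these regions lay in AT5G61997, a gene of only 120 bp, at chromosome 5, 24908026 to 24909001 (fold enrichments 7.75, 35.12 and 15.39). It was longer than its host, and ARF2, which encodes an auxin response factor, was the nearest other gene at 1829 bp. A similar case was AT1G11970, 300 bp long, whose region at chromosome 1, 4043799 to 4044797, had 6.83, 21.88 and 14.58 and lay 337 bp from AT1G11960. For such short hosts, inside and outside a gene differ by less than the length of the region.

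WNK3, a gene of the WNK protein kinases, had a region 24 bp inside its end at chromosome 3, 17875112 to 17875838, with the highest list 1 value of any member (11.35, with 32.48 and 12.04 in lists 2 and 3). ARP1, for an abscisic acid-regulated RNA-binding protein, had one 432 bp inside at chromosome 3, 20273673 to 20274467 (9.4, 20.77 and 13.99). BEE3, a helix-loop-helix gene induced by brassinosteroid, had one 286 bp inside at chromosome 1, 27760977 to 27761733 (7.51, 25.46 and 12.78). These 3 had no other gene end within 1000 bp.

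For AT1G20790 an end of another gene was also near. The region in AT1G20790 at chromosome 1, 7220731 to 7222058 (6.8, 24.32 and 15.82), was 277 bp from an end of that gene and 315 bp from SAUL1, which encodes a ubiquitin ligase of senescence. The region in AT3G54510 at chromosome 3, 20179875 to 20180864 (7.92, 30.02 and 10.19), lay 267 bp inside it. Its nearest other gene, at 1204 bp and so not within 1000 bp, was AT3G54500, the clock-linked gene also named LNK2. Of the 10, the 1 region deep in its gene was that of ATCSLA09, for a glucomannan synthase of the cell wall. It lay 2111 bp from the nearer end of a gene of 5009 bp, at chromosome 5, 987394 to 988201, with 6.36, 27.14 and 18.55-fold enrichment, 230, 294 and 225 tags, and summits within 7 bp.

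The 10 members farthest from both gene ends, taken from those at or above the median by strength, lay 2342 to 3480 bp from the nearer end, and 2 of the 10 had peaks of all 3 lists, those in AT2G34110 (4.16, 8.06 and 9.76) and in RXW8 (3.61, 6.5 and 5.11). AT1G71710 held a region 3456 bp from an end at chromosome 1, 26977295 to 26977817, with 14.47 and 7.23 in lists 2 and 3 and summits 4 bp apart. CSLA02, a relative of ATCSLA09, held one 2342 bp from an end at chromosome 5, 7557302 to 7558482 (9.72 and 10.62 in lists 2 and 3). KNAT2, a homeobox gene active at the shoot apex, had 8.44 and 4.49 in lists 2 and 3, 2454 bp from an end, and the sucrose synthase gene SUS4 had 3.47 and 5.01 in lists 1 and 2, 2528 bp from an end. The others were in AT5G35180 (3.82 and 6.4 in lists 1 and 2), AT4G35240 (5.66 and 3.98 in lists 2 and 3), AT1G67900 (16.14 and 4.89 in lists 2 and 3) and RBOH F. The region in AT2G34110 lay 389 bp from MEE18 and so close to another gene, although 3076 bp from the ends of its host.

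**Figure D5:**
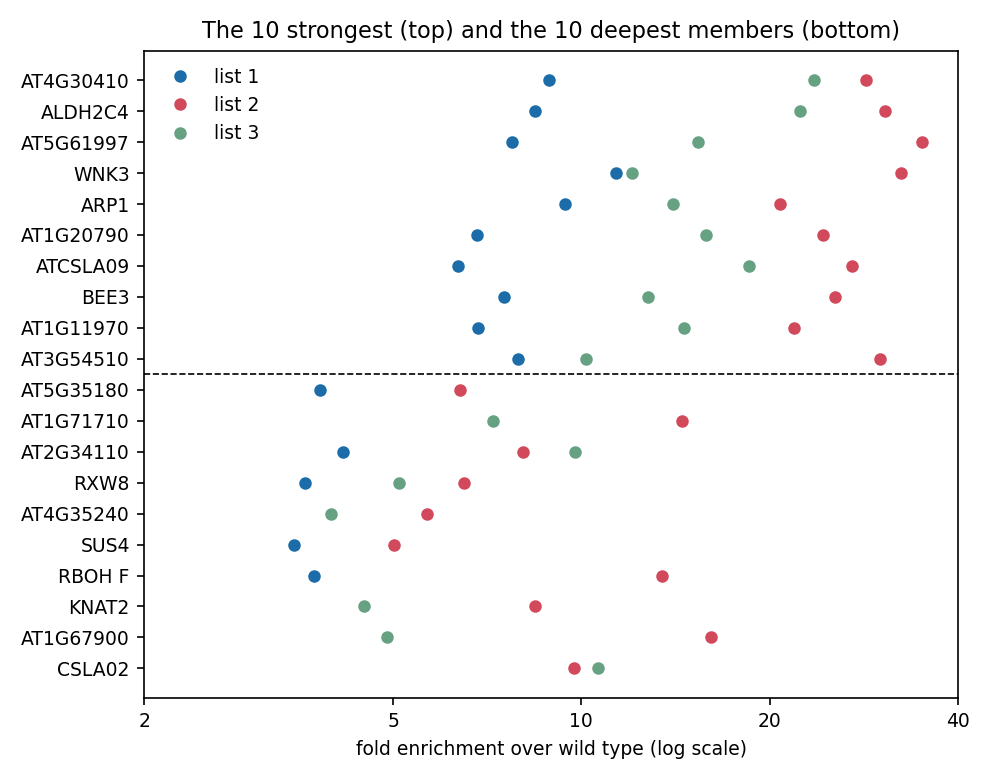
Fold enrichment over wild type (log axis) in lists 1, 2 and 3 of the 10 strongest members of all 3 lists (above the dashed line) and of the 10 farthest from both gene ends among members at or above the median strength (below), named by host gene. The strongest members span 6.36 to 35.12 and the deepest 3.47 to 16.14, and a missing point means that the list has no peak in the region.

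Host genes numbered 1721 of the 27432 in the gene table (6.27%), and 408 (1.49%) hosted a region of all 3 lists. These counts take both genes where a position lay in 2 overlapping genes. Of the 1721, 1676 had 1 region, 43 had 2 and 2 had 3. The 2 genes with 3 regions were RBOH F, for a respiratory burst oxidase that makes superoxide at the plasma membrane, and AT2G43140. RBOH F held regions 610, 2502 and 288 bp from an end, each of 2 lists: 2.3 and 4.65 in lists 1 and 3, then 3.74 and 13.48 in lists 1 and 2, then 10.02 and 4.17 in lists 2 and 3. No list thus saw all 3 of its regions. AT2G43140 held regions of all 3 lists 485 bp (5.57, 10.42 and 4.63) and 1282 bp (4.5, 11.15 and 7.56) from the nearer end. Its region of lists 2 and 3 lay 21 bp from an end (19.57 and 2.67), which is the end opposite to that of the region at 485 bp.

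PIF1 itself (PIL5 in the gene table) held 2 members, 814 bp from an end (3.16, 5.42 and 2.89 in lists 1, 2 and 3) and 1012 bp from an end (4.03 and 3.38 in lists 1 and 3). The tagged line carries added PIF1 sequence, whose tags map to this gene too, so that binding and added copies cannot be told apart there.

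Genes of some growth hormones stood among the hosts. The gene lists were chosen with earlier results of these data known, so their shares are descriptions and were not tested. Of 42 listed auxin genes 16 had a consensus region inside (38.1%, against 6.27% of all genes), 6 of them with a region of all 3 lists. The median listed auxin gene was 2658 bp long, against 2078 bp for all genes. IAA14, IAA2 and IAA7 encode repressors of auxin response. IAA14 had a region 19 bp inside an end (7.15, 13.2 and 8.62) and a second, weaker one 954 bp inside (3.62 and 5.38 in lists 2 and 3), IAA2 one 140 bp inside (4.77, 12.67 and 12.34) and IAA7 one 5 bp inside (16.52 and 5.19 in lists 2 and 3). PIN7, for an auxin efflux carrier, had a region 1250 bp from the nearer end of a gene of 3462 bp (4.48, 11.64 and 6.28). Singled out after their values were seen, PIN3 had one at 1219 bp (3.68, 13.01 and 6.39) and PIN4 one at 295 bp (4.06, 12.71 and 3.7) and one at 1351 bp (4.41 and 3.32 in lists 2 and 3). Each of these 3 efflux carrier genes therefore held a region more than 1000 bp from both ends. TAA1, for the first enzyme of auxin synthesis from tryptophan, also chosen after the fact, had one at 1392 bp (9.43 and 4.97 in lists 2 and 3).

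The brassinosteroid list had 9 of 29 genes with a region inside (31.0%), 6 of them by all 3 lists. Besides BEE3, its strongest hits were BEE1, another brassinosteroid-induced helix-loop-helix gene, 343 bp from an end (4.12, 17.46 and 9.78), and DWF4, for a rate-limiting hydroxylase of brassinosteroid synthesis, 646 bp from an end (4.07, 17.67 and 8.89). BAS1, for an enzyme that inactivates brassinosteroids, had a region 1168 bp from an end with 9.49 and 11.4 in lists 2 and 3. Synthesis and inactivation genes were thus both among the hosts.

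The abscisic acid list had 8 of 25 (32%), 1 of them by all 3 lists. CYP707A2, for an enzyme that breaks down abscisic acid in seeds, had a region 1090 bp from an end (4.92, 15.39 and 7.23). SOM, a zinc-finger repressor of germination, had one 29 bp inside (13 and 7.71 in lists 2 and 3), DAG1, for a DOF factor of dormancy, one 2 bp inside (8.43 and 5.38) and NCED3, for a key step of abscisic acid synthesis, one 353 bp inside (7.04 and 5.66 in lists 2 and 3). The position in DAG1 was close enough to the end to change side with a small shift.

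Of 25 clock genes 6 (24%) had a region inside, 2 by all 3 lists. AT5G08330 (TCP11 in the table, also named CHE, a repressor of CCA1) had 4.77, 22.39 and 5.35 at 295 bp from an end, and the evening-complex gene ELF3 had 3.72, 7.52 and 2.71 at 685 bp. AT5G06980, also named LNK4, had 12.05 and 6.64 in lists 2 and 3 at 99 bp, and LCL1, also named RVE4, had 11.67 and 3.59 at 34 bp from its own end and 144 bp from AT5G02830. Light signalling had 5 of 40 (12.5%), 1 by all 3 lists, which was PIF1 itself. PHYA, the photoreceptor gene for far-red light, had 15.12 and 7.82 in lists 2 and 3 at 495 bp, and BBX28 had 7.17 and 5.88 at 58 bp. The BBX28 region, 2467 bp long, was longer than its host of 1519 bp. PIL6, also named PIF5, had 4.82 and 2.94 in lists 2 and 3 at 243 bp.

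Among the other lists, membrane proteins had 5 of 19 (26.3%), led by TMK1, a receptor-like kinase of auxin and cell expansion, 35 bp from an end (6.11, 19.12 and 10.59). RBOHD had a region 1883 bp from an end (7.09 and 5.01 in lists 2 and 3) and HA1, for a plasma membrane proton pump, one at 1456 bp (2.7 and 10.81 in lists 1 and 2). Cell wall genes had 5 of 22 (22.7%), with the expansin EXPB1 (4.15, 14.26 and 5.72 at 593 bp) and the cellulose synthases CESA1 (2.87, 11.77 and 4.22 at 97 bp), CESA6 (6.17 and 4.05 in lists 2 and 3 at 166 bp) and CESA3, CEV1 in the table (4.37 and 4.33 in lists 2 and 3 at 172 bp). The 3 cellulose synthase regions thus lay 97 to 172 bp from an end. The EXPB1 region, 3537 bp long, was longer than its host of 1874 bp.

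Homeodomain-leucine zipper genes had 4 of 19 (21.1%), none by all 3 lists: HAT22 (3.55 and 5.14 in lists 1 and 2), HB53 (4.68 and 6.34 in lists 2 and 3), HB-2 (6.52 and 3.7 in lists 2 and 3) and HB17 (4.58 and 3.19 in lists 2 and 3). Helix-loop-helix genes outside the other lists had 2 of 18 (11.1%). Of these KDR, a small growth-promoting protein also named PRE6, held 2 regions that abut, 179 bp (3.97, 11.98 and 4.88) and 774 bp (8.78 and 6.18 in lists 2 and 3) from an end, and MYC3, a jasmonate response gene, had 4.04 and 5.5 in lists 1 and 2. Ethylene genes had 2 of 19 (10.5%), ACS11 (2.36 and 4.88 in lists 1 and 3) and EBF2 (2.12, 6.28 and 3.62), and gibberellin genes 1 of 23 (4.35%), GAI, a repressor of gibberellin response (2.48, 5.92 and 4.22). Ethylene and gibberellin lists were therefore near the share of all genes. The GAI region, 3281 bp long, was longer than its host of 2434 bp.

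Photosystem and light-harvesting genes had 1 of 31 (3.23%), NPQ4, also named PSBS, which dissipates excess light, with 7.34, 6.31 and 8.24 at 1464 bp from an end. Of 22 chlorophyll and carotenoid genes, 14 housekeeping genes and 15 floral genes, 0 had a region placed inside. Overlap of the merged region with the gene was a looser count that took 13.5% of all genes and 39.4% of listed genes. By that count these 3 lists had 5 (22.7%), 6 (42.9%) and 0 genes. The housekeeping list was thus above the share of all genes by overlap, although it had no region placed inside. Over all lists 64 of 363 genes had a region inside. The median gene was 2442 bp long on the lists and 2078 bp in the table, so listed genes offered more length, and the lists hold selected genes chosen with results of these data known.

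Host genes were longer than genes at large. Their median length was 2597 bp, against 2078 bp for all genes, and 2912 bp for the gene that holds the middle base pair of all gene bodies, which is where evenly spread positions would fall. Measured against evenly spread positions, the median host was thus shorter, at 2597 bp against 2912 bp. Hosts shorter than 1000 bp held 5.60% of members (exact 95% interval 4.56 to 6.79), where 15.9% of genes are that short. Hosts longer than 5000 bp held 9.47% (8.13 to 10.9), where 5.97% of genes are that long. These shares of genes are not shares of base pairs, and longer genes offer more base pairs. They therefore do not show whether short or long hosts held more members than evenly spread positions would give. The longest host with a member had 17576 bp.

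Other genes were near in a good part of cases. In 631 members (36.4%, exact 95% interval 34.2 to 38.7) an end of another protein-coding gene lay within 1000 bp of the position, against 34.5% of gene base pairs and 31.9% for even positions in the same hosts. In 138 (7.97%) that other end was nearer than an end of the host, and 36 members (2.08%) lay in 2 overlapping genes. The median distance to another gene was 1495.5 bp. On chromosomes 1 to 5 the share of consensus regions that lay inside genes was 36.0%, 35.7%, 35.2%, 34.3% and 36.9%. The share of genes that were hosts was 6.54%, 6.10%, 5.90%, 5.72% and 6.21%. Here each region counts for 1 gene only, the one in which it lay deepest, unlike in the count of 1721 host genes.

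At the border of the rule, the 5 regions just inside a gene end had positions 0 bp from the end and were those of S6K2 (2.65, 3.61 and 5.66), AT1G62950 (9.72 and 6.8 in lists 2 and 3), AT4G24275 (3.33 and 6.89 in lists 1 and 2), CAT2 (6.28 and 2.7 in lists 2 and 3) and AT5G32450 (3.76 and 3.21 in lists 2 and 3). The 5 just outside lay up to 1 bp beyond TOPP9 (5.16 and 4.61 in lists 2 and 3), AT3G27210 (6.43, 27.43 and 13.1), AT5G54855 (2.11 and 12.06 in lists 1 and 2), AHL22 (11.53 and 4.09 in lists 2 and 3) and AT2G23960 (6.94 and 3.61 in lists 2 and 3). The mean percentile of fold enrichment within the lists was 18.1 to 88.6 for the 5 inside and 52.1 to 98.2 for the 5 outside, so the ranges overlapped.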

How the data were processed

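Per the submitters' processing notes, reads were handled with CASAVA 1.8.0, Bowtie 0.12.7 and MACS 1.4.1 on build TAIR10. Per the file headers, the authors called peaks once per PIF1 library, with the same-numbered wild-type library as control and a fragment size of 120 bp, and not on all libraries together. The deposited lists give, per peak, a count of tags of the PIF1 library, a score (10 times the negative log10 of the caller's p), a fold enrichment (a ratio to wild type, with the smaller library scaled up) and a false discovery rate in percent. The redundant rate was 13%, 70% and 66% in PIF1 and 24%, 61% and 15% in wild-type libraries 1 to 3, per the file headers.

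Peaks were merged, placed at mean summits and matched to 27432 protein-coding nuclear genes of TAIR10.1. For distances and host lengths, a position in 2 genes was assigned to the gene in which it lay deepest. Counts of host genes over the whole gene table took both genes, and counts by chromosome took the deepest one. For a list with several peaks in a region, the peak with the highest fold enrichment was used. No other coordinates of the gene table are given. Of 384 listed symbols, 363 different genes were matched by symbol or by a synonym of 1 gene. The members and lists were chosen with earlier results of these data known. Named are the 10 strongest members of all 3 lists, the 10 deepest at or above the median strength, genes with 3 regions, up to 4 hits of each list, 5 regions on each side of a gene end, and PIF1. Intervals are exact (Clopper-Pearson) and, with PCR reads not independent molecules, cover counting error only. Regions are not replicates, so tests used the 3 lists, whose spread may be partly technical. Base-pair shares were computed exactly over gene lengths. Scripts (Python 3.11.15, numpy 2.4.6, pandas 2.3.3, scipy 1.17.1) were tested on simulated peaks. Some items are not reported here. Alternatives changed the overlap, the support, the peak threshold, the position, the gene set and the replicates.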

Additional observations from a re-analysis of the deposited data

How the results depend on the processing

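The share of consensus regions inside genes (35.7%) was 28.9% when all 3 lists were required and 22.8% when peaks under 5-fold were dropped, and the number of members (1732) fell to 402 and 335 there and to 705 with scores of at least 100. With peaks of at least 5-fold the log2 difference in fold enrichment between members and outside regions was -0.098 and support by all 3 lists 11.9%. Support was 26.1% with positions at the middle of the region, where the share inside was 39.9%, with 1931 members. Taking all nuclear genes whatever their type, the share inside was 40.8%, with 1979 members. Genes hit (1721) numbered 408 for regions of all 3 lists and 3702 by overlap of the region. Leaving out each replicate gave 515 (without replicate 2) to 1300 members, a share inside of 31.5% to 36.6%, 65.3% to 76.2% of members within 500 bp of a gene end (69.6% with all), a log2 difference in fold enrichment of -0.53 (without replicate 3) to -0.20, in peak length of 0.063 to 0.15 and in tags of -0.18 to -0.022, and 520 to 1297 genes hit. Without replicate 3 there were 712 members and 720 genes. The fold difference was negative in each alternative run. Support by all 3 lists has no value where a list is left out or all 3 are required. The cause of these moves was not tested beyond the fewer peaks or lists that each setting leaves. Alternatives for tags and for genes hit without a replicate were added after the data were seen. No paired analysis was possible because no wild-type values stand alone, beyond the pairing of libraries that each list already holds and the differences within lists that the tests used. The peak caller's cutoff limits what depth can show: a region missing from a list is not shown to be unbound there.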

Other observations

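Genes were also grouped by the letters of their symbol, a grouping made after the data were seen and not tested. A consensus region was placed inside 6.27% of all genes. Of 48 such groups with at least 20 genes, the median share with a consensus region placed inside was 6.78%, from 0% to 25%. The IAA group, auxin response repressors, had 6 of 24, the BBX group, zinc-finger proteins of light responses, 4 of 20, and the CIPK group, kinases that work with calcium sensors, 4 of 21. WRKY factors of defence had 9 of 67 (13.4%). MYB factors, with 10 of 115 (8.70%), and NAC factors, with 4 of 79 (5.06%), were near the share of all genes. In 7 groups no gene was hit, among them 49 SCPL, 30 CLE and 23 EXPA genes. Members listed under other symbols are missed by this grouping.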
